A study of Mus musculus with 8 samples.

Results

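The 36 genes described here encode enzymes, regulators and a carrier of sterol and fatty acid synthesis. They form a sterol branch of 24 genes and a fatty acid branch of 12 genes, chosen by gene name with earlier results of these data known. A probe set was used for a gene when its only annotated symbol was that of the gene, and where a gene had several such probe sets, the one brightest on average across the 8 arrays was taken. By this rule 33 of the 36 genes were measured, 22 of the sterol branch and 11 of the fatty acid branch, among 12393 genes on the array. *Acat2*, *Insig1* and *Acsl3* were not analysed here.

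Cells positive for CD11b and Gr-1, termed immature myeloid cells in this study, were sorted from the spleens of 4 *Tff2*-null males on a C57BL/6 background at 16 weeks of age. This age is that of the sample labels, and the methods state younger ages for the mice of the study in general. Every mouse carried the *Tff2* deletion and had received 3% dextran sodium sulfate (DSS), which injures the colon, for 5 days and then plain water for 14 days. The sorted cells of each mouse were split between a culture with 5 nM GM-CSF plus 3 μM mouse recombinant TFF2 (rTFF2) and a culture with 5 nM GM-CSF alone (control), each kept for 7 days (the GM-CSF dose is that of the sample labels, and the methods state a different one in units of mass). TFF2 is a small secreted trefoil peptide and GM-CSF a growth factor of myeloid cells, named Csf2 in the labels. The 4 rTFF2 and 4 control cultures were measured on 1 Affymetrix array each, and mouse numbers 1 to 4 join the cultures of an animal. The effect of rTFF2 in cells with a working *Tff2* gene, and cultures without GM-CSF, were not measured.

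Cholesterol is built from acetyl-CoA through mevalonate, isopentenyl units and squalene, and the ring of lanosterol is then trimmed to cholesterol. Fatty acids are built from the same acetyl-CoA, lengthened by elongases and given double bonds by desaturases. Both branches are switched on by SREBP transcription factors, the products of *Srebf1* and *Srebf2*, which Scap escorts out of the endoplasmic reticulum when membranes are poor in sterol and which Insig proteins hold back when sterol is plentiful. SREBPs bind sterol response elements and commonly act with NF-Y, a factor that binds the letters CCAAT.

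The stretches before the start of 5 genes that were lower with rTFF2 are shown to let the start regions of both branches be compared. Each is the 150 bases upstream of the RefSeq start on GRCm38.p6, read 5′ to 3′ on the strand of the gene, with capitals at the letters CCAAT (or their complement ATTGG) and at the sterol response element letters TCACNCCAC. *Hmgcs1*, *Idi1* and *Cyp51* belong to the sterol branch and lie at chr13:119690201-119690350 (plus strand), chr13:8885456-8885605 (plus) and chr5:4104698-4104847 (minus). *Fasn* and *Elovl5* belong to the fatty acid branch and lie at chr11:120824548-120824697 (minus) and chr9:77917215-77917364 (plus).
Hmgcs1: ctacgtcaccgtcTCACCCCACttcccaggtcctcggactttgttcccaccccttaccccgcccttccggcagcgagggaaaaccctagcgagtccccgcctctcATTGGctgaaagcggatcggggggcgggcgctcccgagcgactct
Idi1: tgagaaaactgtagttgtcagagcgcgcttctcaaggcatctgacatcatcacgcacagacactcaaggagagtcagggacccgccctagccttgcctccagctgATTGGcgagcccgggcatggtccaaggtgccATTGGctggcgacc
Cyp51: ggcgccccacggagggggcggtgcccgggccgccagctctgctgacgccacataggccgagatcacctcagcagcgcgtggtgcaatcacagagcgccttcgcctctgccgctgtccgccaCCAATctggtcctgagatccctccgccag
Fasn: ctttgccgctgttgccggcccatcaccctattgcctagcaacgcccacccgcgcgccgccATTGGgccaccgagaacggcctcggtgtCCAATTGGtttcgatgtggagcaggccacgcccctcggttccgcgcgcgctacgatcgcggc
Elovl5: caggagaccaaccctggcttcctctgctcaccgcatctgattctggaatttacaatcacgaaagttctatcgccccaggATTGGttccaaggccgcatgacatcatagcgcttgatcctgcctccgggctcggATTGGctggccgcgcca

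*Hmgcs1* held 1 copy of the sterol response element letters, starting 137 bases before the start, and 1 CCAAT in the printed stretch. In the same stretch *Idi1* held 2 CCAAT copies, *Cyp51* held 1, *Fasn* held 3 and *Elovl5* held 2. The last 2 copies of *Fasn* overlap, since CCAATTGG reads CCAAT on both strands. Over the whole window of 250 bases before to 50 bases after the start, read on both strands, CCAAT was found in 22 of the 26 measured members that have a promoter in the RefSeq table (84.6%), in 17 of 18 of the sterol branch and in 5 of 8 of the fatty acid branch, and in 41.1% of all 27025 genes. Since a gene can have several promoters there, the share was also taken over promoters, and it was 65.7% of the 35 promoters of these members and 37.4% of all 32851 promoters. *Scap*, *Acaca*, *Elovl6* and *Fads2* held no such letters in any listed promoter, and *Elovl6* and *Fads2* were lower with rTFF2. CCAAT was found in 16 of the 18 lower members with a promoter and in 6 of the 8 without a call. The sterol response element letters TCACNCCAC, which leave out looser forms of the element, were in *Hmgcs1* alone among the members with a promoter and in 1.44% of all genes. The letters CACGTG, an E-box that SREBPs can also bind, were in 6 of the 29 members with a promoter, measured or not, and in 8.09% of all genes. A match of letters does not show that a factor was bound in these cells.

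With rTFF2, 25 of the 33 measured genes were lower than in the control cultures and 0 were higher (limma paired by mouse, Benjamini-Hochberg adjusted p under 0.05 over 22626 probe sets). Among all 12393 genes, 13.3% were lower and 14.5% were higher by the same rule, and among the 7550 genes above the background level of the arrays in at least 1 group the shares were 18.5% and 22.7%. Since earlier results were known when the members were chosen, these shares describe the list and do not test it. The background level was a log2 signal of 3.32, taken at the 95th percentile of 39 genes that other tissues express. The lower members were 16 of 22 in the sterol branch (72.7%) and 9 of 11 in the fatty acid branch (81.8%). The median log2 fold change, rTFF2 minus control, was -0.76 in the sterol branch and -1.07 in the fatty acid branch, beside -0.03 over all genes. The sterol branch also holds regulators and a carrier, while the fatty acid branch holds enzymes only. Of the sterol enzymes alone, 14 of 17 were lower (82.4%), with a median of -0.87. Of the 33 measured members 23 had lower signals with rTFF2 in each of the 4 mice, as did 24.6% of all genes and 26.5% of those above background. *Mvd* and *Acss2*, both called, were lower in 3 of 4 mice. Lower calls past 2-fold were made for 10 of the 33 members (30.3%) and for 2.08% of all genes. In 9 members all 4 rTFF2 cultures lay under all 4 control cultures, as in 13.8% of all genes and 16.2% of those above background.

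When the mouse was left out of the fit, 13 of the 25 kept their call, 8 in the sterol branch and 5 in the fatty acid branch, and 11.2% of all genes were lower. The 12 that did not were *Pmvk*, *Mvd*, *Fdps*, *Fdft1*, *Nsdhl*, *Sc5d*, *Srebf2*, *Stard4*, *Acly*, *Acss2*, *Scd1* and *Scd2*. The signals are from whole cultures, so fewer cells of a type and less RNA per cell cannot be told apart.

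**Figure D1:**
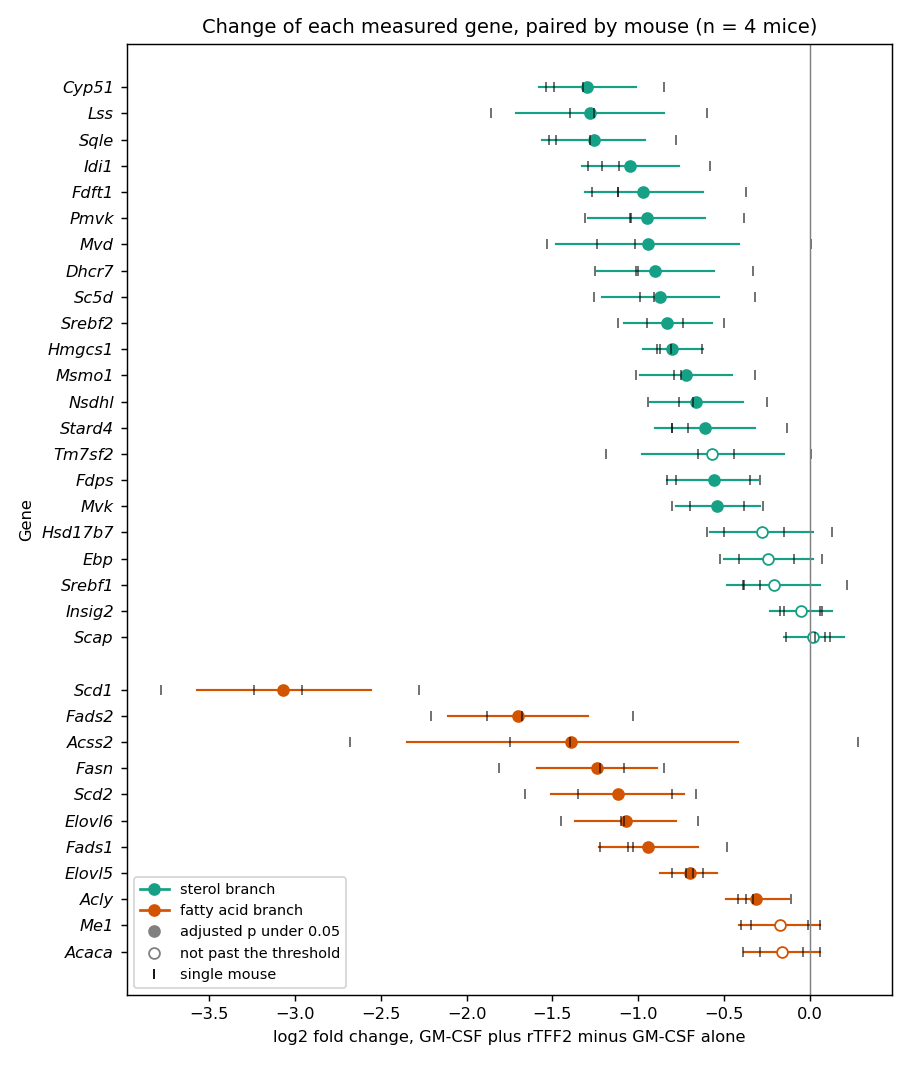
Log2 fold change of each measured gene (rTFF2 minus control culture) from the fit paired by mouse. Circles give the estimate (filled where the adjusted p was under 0.05), horizontal lines its 95% confidence interval, and ticks the differences of the 4 mice, with 25 of 33 circles filled and all of those left of 0.

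The enzymes that lead to squalene were all lower with rTFF2, 7 of 7 measured, with log2 fold changes between -1.05 and -0.54. *Hmgcs1*, the cytosolic synthase that makes HMG-CoA at the entrance of the pathway, had log2 signals of 11.18, 11.03, 11.48 and 11.50 in the rTFF2 cultures of mice 1 to 4 and 12.07, 11.65, 12.29 and 12.36 in the control cultures of the same mice. The groups did not overlap, and the difference in each mouse lay between -0.89 and -0.63. The log2 fold change was -0.80 ± 0.07 (SE, n = 4 mice, limma adjusted p = 0.00067, and 0.0094 without the mouse term), or 1.74-fold lower with a 95% interval of 1.54 to 1.96. The other 3 *Hmgcs1* probe sets were lower as well, by -0.94, -0.78 and -1.13.

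*Idi1*, the isomerase that readies isopentenyl units for joining, had 9.99, 10.29, 10.43 and 10.38 in rTFF2 cultures and 11.27, 10.87, 11.64 and 11.49 in control cultures. The groups did not overlap, and the gene was 2.06-fold lower with rTFF2 (log2 fold change -1.05 ± 0.12, limma adjusted p = 0.0014, and 0.0024 without the mouse term). *Fdft1*, the squalene synthase, had 9.61, 9.58, 10.16 and 10.20 in rTFF2 cultures and 10.73, 9.95, 11.43 and 11.32 in control cultures. The control culture of mouse 2 lay within the rTFF2 range but above its own partner, and the log2 fold change was -0.97 ± 0.15 (limma adjusted p = 0.0038, and 0.053 without the mouse term). *Fdps*, which makes the farnesyl unit that *Fdft1* joins, fell by less, with a log2 fold change of -0.56 ± 0.11 (adjusted p = 0.011), and missed the threshold in 5 of 11 other settings, among them those without mouse 1 or mouse 3 (just above it, 0.050 in each).

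*Mvk* and *Pmvk* encode the kinases of mevalonate and phosphomevalonate, and their log2 fold changes were -0.54 ± 0.10 (limma adjusted p = 0.010) and -0.95 ± 0.14 (0.0039). *Mvk* was dim, with means of 3.98 ± 0.18 with rTFF2 and 4.52 ± 0.28 in the control (SD, n = 4 each), and its adjusted p was 0.051 without mouse 3. *Mvd*, the decarboxylase that follows them, showed the widest spread between mice of this stretch of the pathway. It had 5.88, 6.03, 6.65 and 7.15 in rTFF2 cultures and 7.12, 6.02, 8.18 and 8.16 in control cultures, so that the cultures of mouse 2 were level. Its log2 fold change was -0.94 ± 0.23 (limma adjusted p = 0.023), and the adjusted p was between 0.08 and 0.09 when mouse 1, 3 or 4 was left out.

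Of the enzymes from squalene on, 7 of 10 were lower and 3 did not pass the test. *Cyp51*, the demethylase of lanosterol, had 8.87, 8.97, 9.21 and 9.33 in rTFF2 cultures and 10.41, 9.82, 10.70 and 10.65 in control cultures. No rTFF2 culture reached any control culture, and the log2 fold change of -1.30 ± 0.12 was the lowest of the sterol branch (2.46-fold lower, 95% interval 2.02 to 2.99, limma adjusted p = 0.00065, and 0.0017 without the mouse term). *Sqle*, the squalene epoxidase that takes the first oxygen-dependent step, had 8.12, 8.05, 8.98 and 8.95 in rTFF2 cultures and 9.64, 8.83, 10.46 and 10.22 in control cultures. Only the control culture of mouse 2 lay within the rTFF2 range, and the log2 fold change was -1.26 ± 0.13 (limma adjusted p = 0.00086, and 0.035 without the mouse term).

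*Lss*, which closes the ring to lanosterol, had 6.73, 6.33, 6.75 and 7.22 in rTFF2 cultures and 7.99, 6.92, 8.61 and 8.62 in control cultures, with a log2 fold change of -1.28 ± 0.18 (limma adjusted p = 0.0030). *Msmo1*, which oxidises the methyl groups to be removed, had 10.42, 10.45, 10.80 and 10.75 in rTFF2 cultures and 11.17, 10.78, 11.59 and 11.75 in control cultures (log2 fold change -0.72 ± 0.11, limma adjusted p = 0.0044). For both, mouse 2 again had the smallest fall and the only control culture within the rTFF2 range.

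*Nsdhl*, *Sc5d* and *Dhcr7* act in the removal of methyl groups, in desaturation of the ring and in the last reduction to cholesterol. Their log2 fold changes were -0.66 ± 0.11, -0.87 ± 0.14 and -0.90 ± 0.14, with limma adjusted p of 0.0065, 0.0053 and 0.0048 and lower values in 4 of 4 mice. *Tm7sf2*, a sterol reductase, had a log2 fold change of -0.57 ± 0.18 and lay close to the threshold (limma adjusted p = 0.054, between 0.015 and 0.28 over the other settings). *Hsd17b7*, a ketosteroid reductase, and *Ebp*, a sterol isomerase, had log2 fold changes of -0.28 ± 0.13 (95% interval -0.58 to 0.02, adjusted p = 0.15) and -0.24 ± 0.11 (-0.50 to 0.02, adjusted p = 0.16), with the rTFF2 culture of mouse 2 slightly above its control for both. Without mouse 2 *Tm7sf2* (-0.76, adjusted p = 0.015) and *Hsd17b7* (-0.42, adjusted p = 0.041) passed the threshold. The second *Hsd17b7* probe set, dimmer but above background, was lower with all 4 mice (-0.34, limma adjusted p = 0.043). The intervals of these 2 genes do not reach the changes of *Cyp51*, *Sqle* or *Lss*, but differences between genes were not tested.

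**Figure D2:**
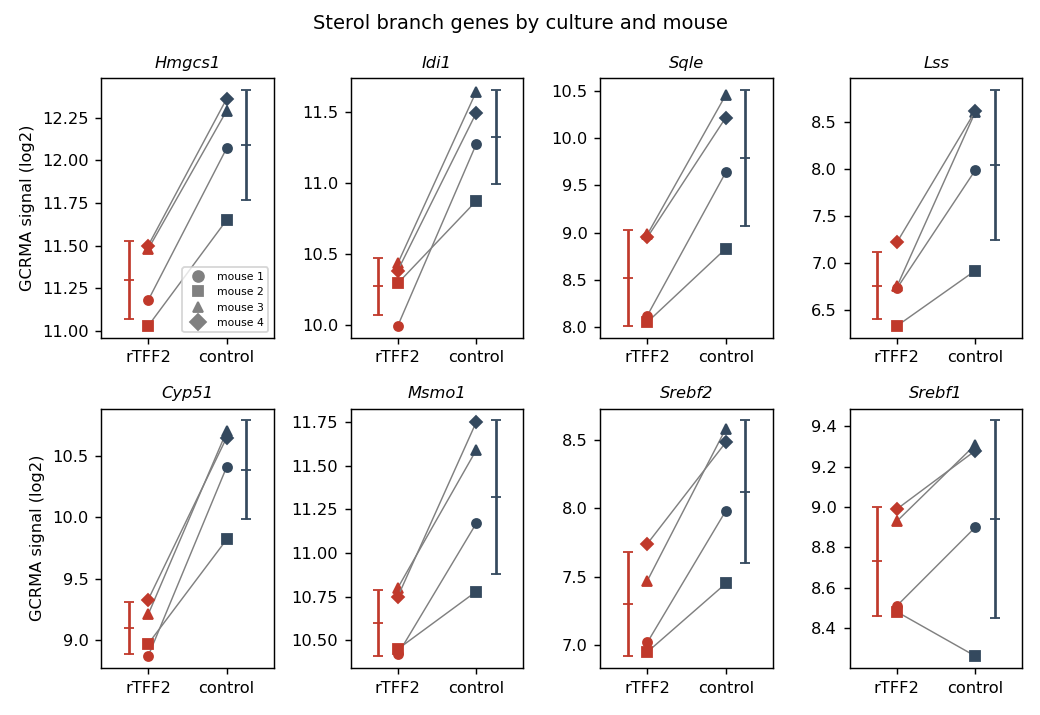
GCRMA signal (log2) of 8 genes of the sterol branch in the rTFF2 culture (left, red) and the control culture (right, blue) of each of 4 mice, where grey lines join the 2 cultures of an animal and bars show the group mean with its SD (n = 4). Lines rise towards the control for every mouse in the first 7 panels, while the cultures of mouse 2 run the other way for *Srebf1*.

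Of the 4 measured regulators, only *Srebf2* was lower. *Srebf2*, which encodes the SREBP that chiefly serves cholesterol synthesis, had 7.02, 6.95, 7.47 and 7.74 in rTFF2 cultures and 7.98, 7.45, 8.58 and 8.48 in control cultures. It was lower in each mouse, with a log2 fold change of -0.83 ± 0.11 (limma adjusted p = 0.0021, and 0.053 without the mouse term), and its other probe set gave -0.38 (adjusted p = 0.040). *Srebf1*, whose products chiefly serve fatty acid synthesis, had 8.51, 8.48, 8.93 and 8.99 in rTFF2 cultures and 8.90, 8.26, 9.31 and 9.28 in control cultures. The difference for *Srebf1* was not past the threshold (log2 fold change -0.21, 95% interval -0.48 to 0.06, adjusted p = 0.23), and without mouse 2 it was -0.35 with an adjusted p of 0.025.

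*Scap*, the escort of the SREBPs, had a log2 fold change of 0.02 with a 95% interval of -0.15 to 0.20 (adjusted p = 0.84), and *Insig2*, which retains the escort, had -0.05 with an interval of -0.23 to 0.13 (adjusted p = 0.70). Neither had a settled sign, since *Scap* turned to -0.02 when the arrays were centred or normalized once more and *Insig2* to 0.06 in the mean of its probe sets. *Stard4*, a carrier that moves sterol between membranes, was lower by -0.61 ± 0.12 on the log2 scale (limma adjusted p = 0.012), in mouse 2 by -0.13 and in the other mice by -0.80 to -0.71, and its adjusted p was 0.052 to 0.055 with mouse 1, 3 or 4 left out.

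In the fatty acid branch, all 4 desaturases and both elongases were lower. *Scd1*, the stearoyl-CoA desaturase that makes oleate, had the lowest log2 fold change of the 33 genes. Its signals were 4.25, 2.38, 6.73 and 7.05 in rTFF2 cultures and 8.03, 5.63, 9.69 and 9.33 in control cultures. Mice differed by more than the cultures of a mouse, so that the groups overlapped although each mouse was lower, by -3.78 to -2.28. The log2 fold change was -3.07 ± 0.21 (limma adjusted p = 0.00027), and the adjusted p without the mouse term was 0.092. The rTFF2 culture of mouse 2 lay under the background level of 3.32, so that its value is only a bound, and without mouse 2 the log2 fold change was -3.01. The size depended on the treatment of dim signals, with -2.08 when 32 was added on the linear scale and -2.29 in the mean of the *Scd1* probe sets.

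*Scd2*, the related desaturase, had 11.59, 10.38, 12.53 and 12.56 in rTFF2 cultures and 12.94, 12.04, 13.33 and 13.22 in control cultures (log2 fold change -1.12 ± 0.17, limma adjusted p = 0.0035, and 0.13 without the mouse term). It shared with *Scd1* low values in both cultures of mouse 2. *Fads2*, which takes the first desaturation step of polyunsaturated fatty acids, had 5.22, 5.39, 5.98 and 6.20 in rTFF2 cultures and 7.43, 6.42, 7.86 and 7.88 in control cultures. The groups did not overlap, and the gene was 3.25-fold lower (log2 fold change -1.70 ± 0.17, limma adjusted p = 0.00090, and 0.0070 without the mouse term). *Fads1*, the next desaturase of that route, had 6.96, 7.16, 7.16 and 7.26 in rTFF2 cultures and 8.01, 7.64, 8.37 and 8.29 in control cultures (log2 fold change -0.94 ± 0.12, limma adjusted p = 0.0021).

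*Elovl5*, the elongase of polyunsaturated fatty acids, had 11.08, 11.10, 11.21 and 11.34 in rTFF2 cultures and 11.88, 11.72, 11.89 and 12.06 in control cultures. Its difference varied little between mice, from -0.80 to -0.62, and the log2 fold change was -0.70 ± 0.07 (limma adjusted p = 0.00075, and 0.00090 without the mouse term). *Elovl6*, which lengthens saturated and monounsaturated chains, had 4.55, 5.12, 5.47 and 5.45 in rTFF2 cultures and 6.01, 5.77, 6.56 and 6.56 in control cultures (log2 fold change -1.07 ± 0.12, limma adjusted p = 0.0014). Neither elongase overlapped between the groups.

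*Fasn*, the fatty acid synthase, had 7.01, 7.67, 7.84 and 7.89 in rTFF2 cultures and 8.82, 8.51, 9.06 and 8.97 in control cultures. Every rTFF2 culture lay under every control culture, and the gene was 2.36-fold lower (95% interval 1.85 to 3.01, log2 fold change -1.24 ± 0.15, limma adjusted p = 0.0016, and 0.0025 without the mouse term). *Acaca*, the carboxylase that makes the malonyl-CoA used by the synthase, lay at background in both groups, with means of 2.27 ± 0.14 with rTFF2 and 2.44 ± 0.07 in the control (SD, n = 4 each), so its change was not measurable with this probe set.

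Of the enzymes that supply acetyl-CoA and NADPH, *Acly*, the citrate lyase, was lower by -0.31 ± 0.08 on the log2 scale (limma adjusted p = 0.028), the smallest change among the lower genes, and missed the threshold when mouse 1, 3 or 4 was left out. *Acss2*, which activates acetate, had 4.84, 4.16, 5.98 and 5.24 in rTFF2 cultures and 6.24, 3.88, 7.73 and 7.92 in control cultures. It was lower in mice 1, 3 and 4 and higher by 0.28 in mouse 2, with a log2 fold change of -1.39 ± 0.41 at the edge of the threshold (limma adjusted p = 0.046, and 0.26 without the mouse term). Without mouse 2 the adjusted p was 0.0027 at a log2 fold change of -1.94, and with mouse 1, 3 or 4 left out it was 0.12 to 0.15. *Me1*, the cytosolic malic enzyme, lay at background in both groups (means 2.86 ± 0.17 with rTFF2 and 3.03 ± 0.23 in the control, SD, n = 4 each).

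**Figure D3:**
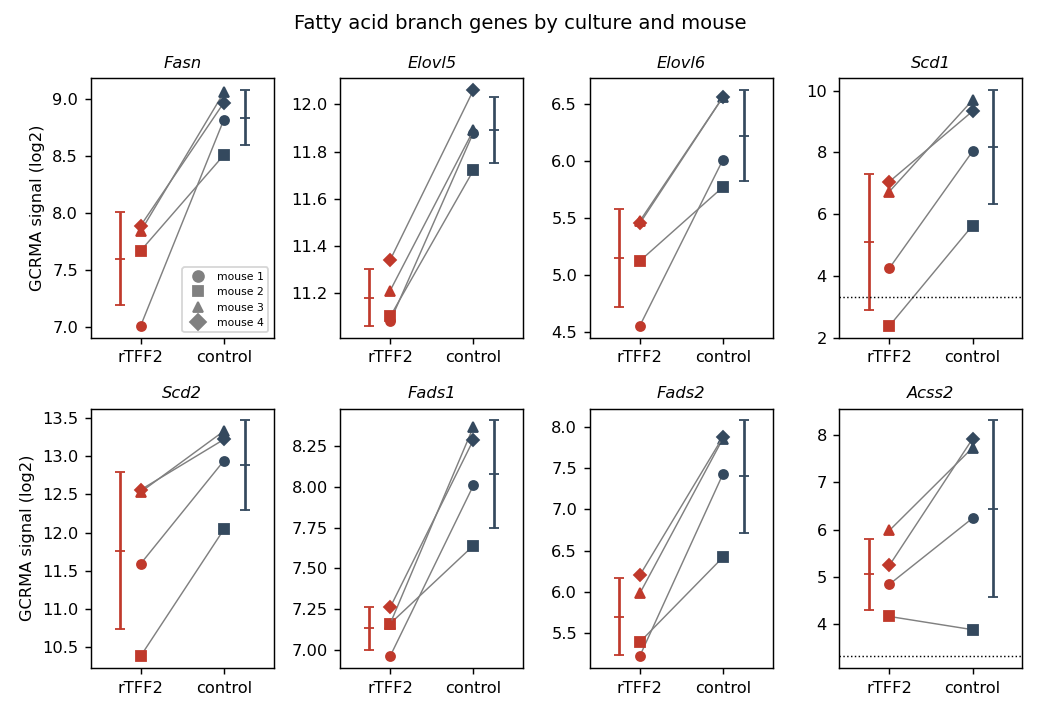
GCRMA signal (log2) of 8 genes of the fatty acid branch in the rTFF2 culture (left, red) and the control culture (right, blue) of each of 4 mice, where grey lines join the 2 cultures of an animal, bars show the group mean with its SD (n = 4), and dots mark the 3.32 background level where it falls in the range. The control culture is above its rTFF2 partner for every mouse except mouse 2 for *Acss2*, and *Scd1* spans the widest range between mice.

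Besides the probe sets above, 21 of the members had 32 others. Of the 24 above background, 18 were lower, 6 did not pass the test and 0 were higher. The *Scd2* probe sets differed in size (-1.12, -2.13 and -0.81 on the log2 scale), as did those of *Scd1* (-3.07 and -1.52), while *Cyp51* gave -1.30, -1.41 and, on a probe set near background, -0.33. *Mvd*, *Fdft1*, *Lss* and *Acly* were read on probe sets whose identifiers (ending in s_at or x_at) mark probes that can match transcripts of other genes. Their other probe sets above background gave log2 fold changes of -1.08 for *Fdft1* and -0.87 for *Lss*, both lower (limma adjusted p = 0.0027 and 0.0082). Those of *Mvd* (-0.75, adjusted p = 0.075) and *Acly* (-0.46 and -0.35, adjusted p = 0.11 and 0.064) did not pass the test.

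The values of mouse 2 differed from those of the other animals in many of these genes. Its control culture was the lowest of the 4 controls in 28 of the 33 members (84.8%), against 35.2% of the genes above background. Its rTFF2 culture was the lowest of the 4 rTFF2 cultures in 17 members and that of mouse 1 in 12 (27.9% and 23.8% of the genes above background). The difference was the least negative in mouse 2 for 26 members (78.8%), against 30.7% of the genes above background. The median difference of the sterol branch was -0.84, -0.32, -1.03 and -0.84 in mice 1 to 4, and that of the fatty acid branch was -1.35, -0.62, -1.08 and -1.03. Over the genes above background the medians of the 4 mice lay between 0.00 and 0.04. Without mouse 2, 19 genes of the sterol branch and 9 of the fatty acid branch were lower. Since mouse 2 mostly had the smallest falls, leaving it out could hardly reduce these counts. With mouse 1, 3 or 4 left out instead, the sterol branch had 13, 12 and 14 lower genes, and the fatty acid branch 7 each time. The control culture of mouse 2 also had the lowest summed linear levels of the 4 controls for MHC class II and dendritic cell genes (33286, against 42255 to 43462 in the other controls), myeloid genes (58164, against 65660 to 70601) and eosinophil genes (810, against 1292 to 3293), and the highest for neutrophil genes (71071, against 38119 to 59431). Such sums weigh the brightest probe sets most, and single genes did not all follow them. In log2 signal, the neutrophil genes *Mmp8* (12.91, against 12.95 to 13.13) and *Mmp9* (9.57, against 10.72 to 10.80) were lowest in this culture. The eosinophil gene *Epx* (5.68) lay above the controls of mice 3 and 4 (5.12 and 4.78), and the dendritic cell gene *Ccl22* (10.16, against 9.71 to 10.06) was highest. The part of these levels in the values of mouse 2 was not tested.

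**Figure D4:**
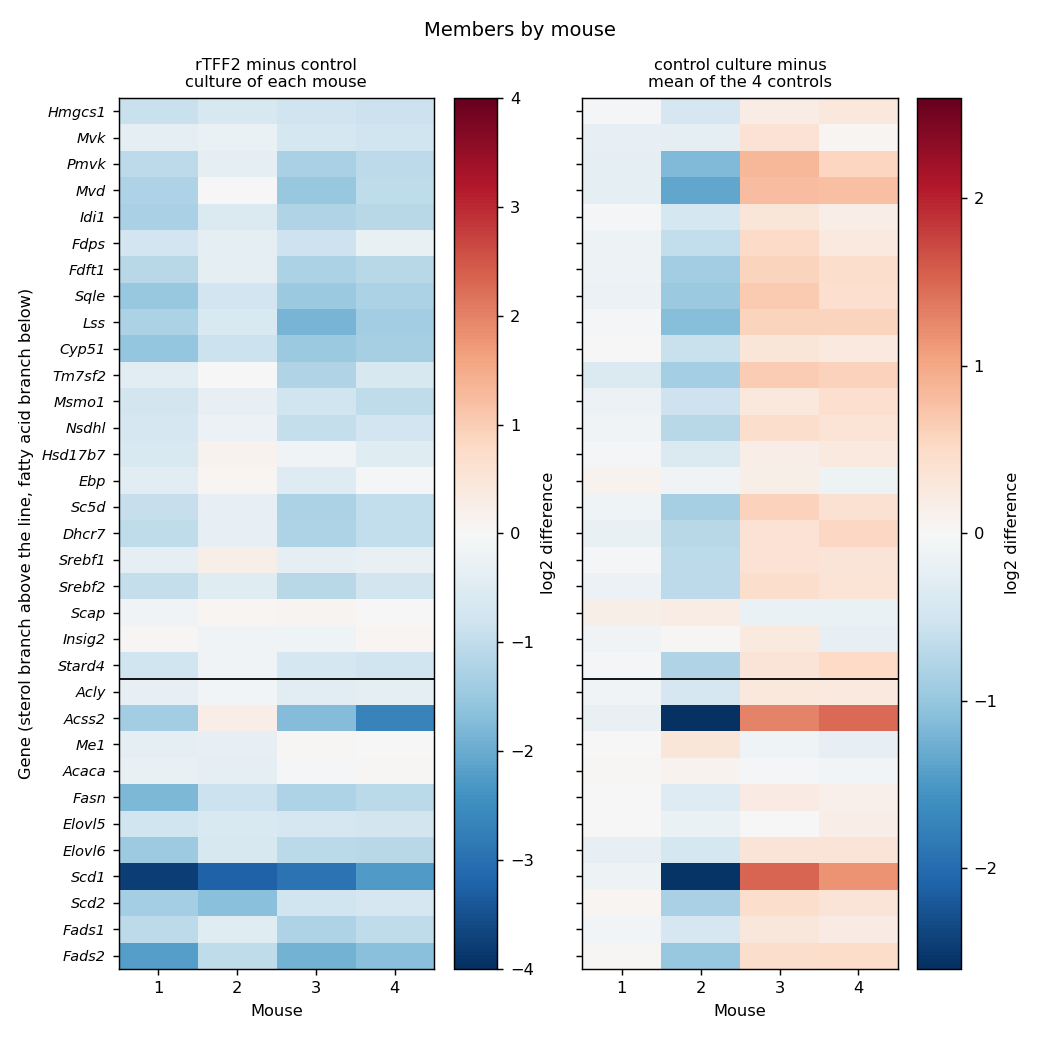
Left, the difference in log2 signal between the rTFF2 and the control culture of each mouse. Right, the control culture of each mouse relative to the mean of the 4 control cultures, for the 33 measured genes (blue, lower; red, higher), where mouse 2 is lowest in 28 of 33 genes and has the palest column on the left.

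Other genes near these pathways, from lists of related roles, did not all move with the members. Beside the counts of these lists, 13.3% of all genes were lower and 14.5% were higher. Of 7 further genes of the SREBP pathway and of isoprenoid synthesis (of 20 listed, the others not analysed here), 1 was lower and 0 were higher (median log2 fold change -0.06). The lower gene was *Aacs*, which activates acetoacetate for sterol and fatty acid synthesis (-0.54 ± 0.13, limma adjusted p = 0.025), while *Mbtps1*, a protease that releases SREBPs, had 0.00 ± 0.07 (adjusted p = 0.97). Of 13 genes of sterol handling and of LXR, the sterol-sensing nuclear receptor, 5 were higher and 2 were lower. *Abca1*, which exports cholesterol from the cell, had 11.99, 11.58, 12.08 and 11.88 in rTFF2 cultures and 10.74, 9.19, 10.45 and 10.58 in control cultures, with no overlap (log2 fold change 1.64 ± 0.18, limma adjusted p = 0.0012). *Mylip*, whose product leads the LDL receptor to degradation, had 1.26 ± 0.12 (limma adjusted p = 0.00070), *Npc1*, which takes cholesterol out of lysosomes, had 0.74 ± 0.07 (0.00082), and *Rxra*, the partner of LXR, had 0.45 ± 0.09 (0.010). *Abcg1*, a further cholesterol exporter, had -0.10 ± 0.09 (adjusted p = 0.49), and *Lpcat3* had 0.02 ± 0.09 (0.87). The 2 lower genes were *Ch25h* (-1.01 ± 0.21, limma adjusted p = 0.013) and *Cyp27a1* (-0.65 ± 0.13, 0.012). The LXR genes themselves could not be read. *Nr1h3* lay at background in both groups (means 2.40 with rTFF2 and 2.52 in the control), and *Nr1h2* was not analysed here.

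Of 25 other genes of fatty acid and glyceride synthesis, 8 were lower (32%, against 13.3% of all genes) and 3 were higher (median log2 fold change -0.05). The lower genes include *Acacb*, which lay at background in both groups (means 1.86 with rTFF2 and 2.15 in the control). *Dgat1*, which makes triglyceride from diglyceride, had 9.05, 8.82, 9.38 and 9.62 in rTFF2 cultures and 7.31, 7.19, 7.32 and 7.43 in control cultures. It was higher in each mouse without overlap (1.91 ± 0.11, limma adjusted p = 0.00014), on a probe set of the s_at kind that can match transcripts of other genes. *Acss1*, the mitochondrial counterpart of *Acss2*, was lower by -1.54 ± 0.14 (limma adjusted p = 0.00054), *Fads3* by -1.42 ± 0.15 (0.00099) and *Lpin1*, a phosphatidate phosphatase, by -1.41 ± 0.17 (0.0018). Of 19 genes of fatty acid oxidation, 5 were lower (26.3%) and 1 was higher (median -0.11), with *Etfa* (-0.49, limma adjusted p = 0.0048), *Hadhb* (-0.45, 0.010), *Hadh* (-0.59, 0.017) and *Decr1* (-0.74, 0.017) the 4 with the smallest adjusted p. *Ppara*, also counted as lower, lay at background in both groups (means 2.01 with rTFF2 and 2.28 in the control). The rate-setting transferase *Cpt1a* had -0.09 ± 0.08 (adjusted p = 0.47). *Hadhb*, *Hadh* and *Cpt1a* were read on probe sets of the x_at kind, which can also match transcripts of other genes.

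**Figure D5:**
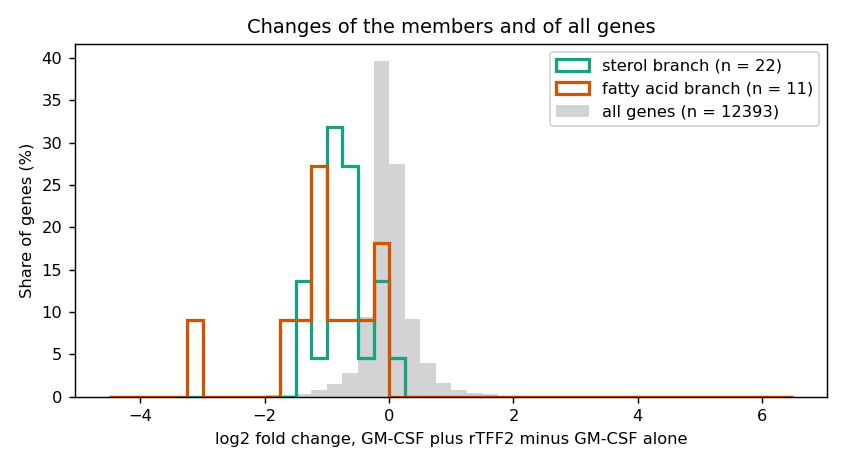
Share of genes (%) by log2 fold change (rTFF2 minus control culture), in steps of 0.25, for the 22 genes of the sterol branch, the 11 of the fatty acid branch and all 12393 genes (grey). The grey bars centre near 0 and most of the outline of each branch lies to their left, with *Scd1* at -3.07.

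The cultures also differed in genes of other kinds, and the part of these differences in the results above was not tested. For the counts that follow, 13.3% of all genes were lower and 14.5% were higher. Among the genes above background these shares were 18.5% and 22.7%. Of 15 proliferation genes, 13 were lower with rTFF2 and 0 were higher (median -0.55), and the smallest adjusted p belonged to the cyclin genes *Ccnd1* (log2 fold change -3.04) and *Ccne1* (-1.20) and the replication genes *Mcm3* (-0.70) and *Mcm4* (-0.62). The probe sets of *Mcm3* (s_at) and *Mcm4* (x_at) can match transcripts of other genes. The summed linear level of the 15 genes was 16161 to 22311 in rTFF2 cultures and 26112 to 29443 in control cultures. Of 11 MHC class II and dendritic cell genes, 10 were lower (sums 8387 to 12781 with rTFF2 and 33286 to 43462 in the control, with *Flt3* at background). All 13 neutrophil genes were higher (sums 92644 to 108319 with rTFF2 and 38119 to 71071 in the control), as were 7 of 10 basophil and mast cell genes (4259 to 7828 and 207 to 512, with *Tpsb2*, *Cma1* and *Mcpt4* at background) and 3 of 6 eosinophil genes, with 1 lower (4414 to 10884 and 810 to 3293, with *Ccr3* and *Il5ra* at background). The 10 markers of myeloid cells in general were all above background in the cultures (sums 78048 to 86197 with rTFF2 and 58164 to 70601 in the control, 6 of 10 higher). No gene of Gr-1 (Ly-6G or Ly-6C) was among them, so they do not check the sorted cell type. Markers of other cells were at or near background, with 0 of 8 T and NK cell genes, 1 of 6 B cell genes, 0 of 5 erythroid genes and 1 of 10 stromal and endothelial genes above it. The 3′ minus 5′ log2 signal of the actin control probe sets was 0.66 to 0.74 in rTFF2 cultures and 0.42 to 0.62 in control cultures. The correlation between arrays was 0.992 to 0.998 within a group and 0.985 to 0.992 across groups.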

How the data were processed

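RNA of 8 cultures was hybridized to Affymetrix mouse arrays, 1 per culture. The authors deposited log2 signals from GCRMA, a method that corrects background by probe sequence, normalizes between arrays and summarizes probe sets (version 2.30.0, with affy 1.36.0, per the submitters' processing notes). GCRMA pulls dim signals to a floor, so folds of genes near background are uncertain, and levels of different probe sets are not comparable. The number of arrays, not a read depth, limits precision. Array medians were 4.15 to 4.21 in the rTFF2 group and 4.10 to 4.13 in the control group.

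Of 22690 probe sets, 64 controls were left out. Of the rest, 20380 carried 1 symbol, 691 several and 1555 none in the platform annotation; symbols were checked by gene identifier against RefSeq GRCm38.p6 (29 not found, 0 updated). The background level was taken from 39 genes of other tissues. Values were fitted in R 4.3.3 with limma 3.58.1 (lmFit, eBayes), mouse as a block, and Benjamini-Hochberg adjusted over 22626 probe sets (threshold 0.05). The methods name limma and state no block for it. An rTFF2 and a control culture share each animal number in the labels, and by the methods both came from that animal's cells, which pairs them. Deviations from the group means correlated at 0.05, 0.54, 0.31 and 0.39 between cultures of mice 1 to 4, and at -0.54 to 0.34 between mice, over 13197 probe sets above background.

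Alternatives were no block, a filter on dim probe sets, quantile normalization once more, centring on array medians, 32 added before log2, a trended robust prior, the mean of a gene's probe sets, and leaving out each mouse. The members and lists were chosen with earlier results of these data known. All members are named, and from each further list up to 4 genes past the threshold with the smallest adjusted p. Other genes were named after their values were seen. They are *Mbtps1*, *Abcg1*, *Lpcat3*, *Ch25h*, *Cyp27a1*, *Nr1h3*, *Acacb*, *Ppara*, *Cpt1a*, *Mmp8*, *Mmp9*, *Epx* and *Ccl22*. Promoters were read from the RefSeq table of GRCm38.p6, which held 29 of the 36 members. *Fdps*, *Fdft1*, *Sqle*, *Stard4*, *Scd1*, *Scd2* and *Fads1* have no sequence shown. Scanner files were not used here.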

Additional observations from a re-analysis of the deposited data

How the results depend on the processing

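Without the replicate block the sterol branch had 8 lower genes and the fatty acid branch 5, against 16 and 9 with it, since the paired fit removes the spread between mice. With each mouse left out in turn, the counts were 12 to 19 and 7 to 9, the medians -0.85 to -0.71 and -1.10 to -0.94, and the lower calls among all genes 995 to 1418, in a fit with fewer arrays. Under the remaining settings the sterol branch had 11 to 17 lower genes and the fatty acid branch 8 or 9, and no member was called higher under any setting. Median centring gave 2103 lower and 1524 higher genes over the array, against 1647 and 1791 as deposited, with 17 and 9 lower members. *Scap*, at 0.02, was -0.02 when quantile normalized once more, -0.02 when centred and -0.01 without replicate 3 (up to 0.08 without replicate 1), and *Insig2*, at -0.05, was 0.06 in the mean of its probe sets, with adjusted p between 0.58 and 0.97, and the cause was not tested. *Hmgcs1*, *Idi1*, *Sqle*, *Lss*, *Cyp51*, *Msmo1*, *Fasn*, *Elovl5*, *Elovl6*, *Fads1* and *Fads2* passed the threshold under all 11 alternatives. *Mvd*, *Fdps*, *Stard4*, *Acly* and *Acss2* lost the call in 4 or more of them, and *Dhcr7* (0.053) and *Mvk* (0.055) with the offset, *Mvk* also without replicate 3. No group of 4 cultures had a value far from the others among the 66 groups checked (Dixon's test), where chance gives about 3.3.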
